A study of Mus musculus with 18 samples.

Results

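Whole blood of mice taken 6 h after a dose of 8 Gy was compared with blood of sham-treated mice across all genes measured. The samples were taken by their labels: 6 irradiated mice and 7 sham mice, 13 of the 18 mice of the series, with 1 array per mouse. The other 5 mice received 2 Gy and entered the fit to estimate the spread and the effect of the extraction kit; levels at 2 Gy are given only beside those at 8 Gy. All were male mice of the inbred strain C57BL/6N, 8 to 12 weeks old, with no transgene or deletion named in the labels. Irradiated mice were exposed to gamma rays from a cesium source, and blood of every group was drawn from the heart. Blood RNA was extracted with the RiboPure kit in all 6 mice at 8 Gy and in 5 of the sham mice, and with the PAXgene kit in the other 2 sham mice. Globin RNA, which fills most of a red cell's message, was depleted in all samples. The series asks which blood transcripts mark a radiation exposure.

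Ionizing radiation breaks DNA, and the kinases that sense the breaks stabilise the transcription factor p53. This factor then switches on genes that halt the cell cycle, start apoptosis, repair DNA and limit p53 itself. In blood, B cells are known as the most radiosensitive of the large cell classes, T cells and NK cells as less so, and mature neutrophils, which no longer divide, as resistant. Levels in this text are log2 values of an array's processed signal minus the 75th percentile of that array, so a level of 0 is that percentile. They can be compared between mice for a gene, not between genes.

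Some arrays stood apart, and results are given with and without them. The array labelled 0 Gy replicate 5 had a score for p53 targets of cell cycle arrest (mean log2 difference of the listed genes from the 6 other sham arrays) of 1.93. The 6 other sham arrays lay between -0.38 and 0.24 on that score, and the 8 Gy arrays between 1.97 and 2.60. For mature neutrophil genes it scored 2.09 against -0.28 to 0.35 in the other sham arrays, and for B cell receptor genes -1.66 against -0.47 to 0.47. It is kept at 0 Gy as labelled, and ranges of sham values are given for the 6 other arrays with replicate 5 beside them. Among the irradiated mice, 8 Gy replicate 1 had the B cell score nearest to the sham arrays, -1.04, against -2.45 to -3.52 in the other 5.

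Irradiated arrays were also dimmer. The 75th percentile of the signal ran from 138 to 425 intensity units at 0 Gy and from 58.4 to 232 at 8 Gy, a difference of -0.98 on the log2 scale (exact 2-sided permutation test over 1716 splits, p = 0.0431). The difference was -1.10 without replicate 5 (p = 0.0346, exact permutation test) and -1.04 in RiboPure arrays (p = 0.0649, exact permutation test). With 1 array left out, p was 0.0505 to 0.0922 (exact permutation tests) without any of 0 Gy replicates 1, 2, 6 and 7 and 8 Gy replicates 1, 2, 5 and 6, so the difference then did not pass. Probes well above background numbered 19265 to 24448 at 0 Gy and 16941 to 22782 at 8 Gy, and their means did not differ past the threshold (p = 0.132, exact permutation test). Arrays are taken as separate mice, and p-values measure the spread between them. Of the 8 slides, 1 held both doses, 0 Gy replicate 1 with 8 Gy replicates 3 and 4, so for most arrays slide and dose cannot be told apart.

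After 8 Gy, 1629 of 13540 genes tested (12.0%) passed an adjusted p of 0.05 in limma, 1033 higher (7.63%) and 596 lower (4.40%). Leaving out the array labelled 0 Gy replicate 5 raised the count to 3085 (22.8%), 2093 higher (15.5%) and 992 lower (7.33%). In RiboPure arrays only, the count was 293 (2.16%), 157 higher (1.16%) and 136 lower (1.00%). RiboPure arrays without replicate 5 gave 2152 (15.9%), 1523 higher (11.2%) and 629 lower (4.65%). The 293 genes that passed with 1 sign in the fits to all arrays, without replicate 5 and to RiboPure arrays held 157 rises and 136 falls. The counts moved with the arrays that entered. The count was 280, 357, 887, 819, 1055 and 882 without 0 Gy replicates 1, 2, 3, 4, 6 and 7. It was 2927, 640, 582, 410, 504 and 423 without 8 Gy replicates 1 to 6, and 988, 1201, 2371, 1922 and 630 without 2 Gy replicates 1 to 5.

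The direction of the calls depended on scaling. Of the calls 63.4% were higher, against 45.5% after quantile normalization, which called 1145 genes (8.46%), 521 higher (3.85%) and 624 lower (4.61%), 45.1% in the deposited table and 44.7% with normexp background correction. The median log2 fold change of all genes was 0.08 as scaled here and -0.02 after quantile normalization. Within slide 1, the difference between the 2 irradiated arrays and the sham array had a median of 1.37 over the genes that rose and -1.46 over those that fell. On the scan day shared by the array labelled 0 Gy replicate 5 and 8 Gy replicate 6, the medians were 0.48 and -0.81. These genes were called in a fit that holds the same arrays, so the direction of these medians follows largely from that choice. With the slide as a fixed block limma passed 0 genes (1167 at an unadjusted p under 0.05), and with the scan day 0 (2508). With array brightness as a covariate it also passed 0 (1836). Without replicate 5, in fits added after the data were seen, 9 genes passed with the slide block and 393 with brightness as a covariate.

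**Figure D1:**
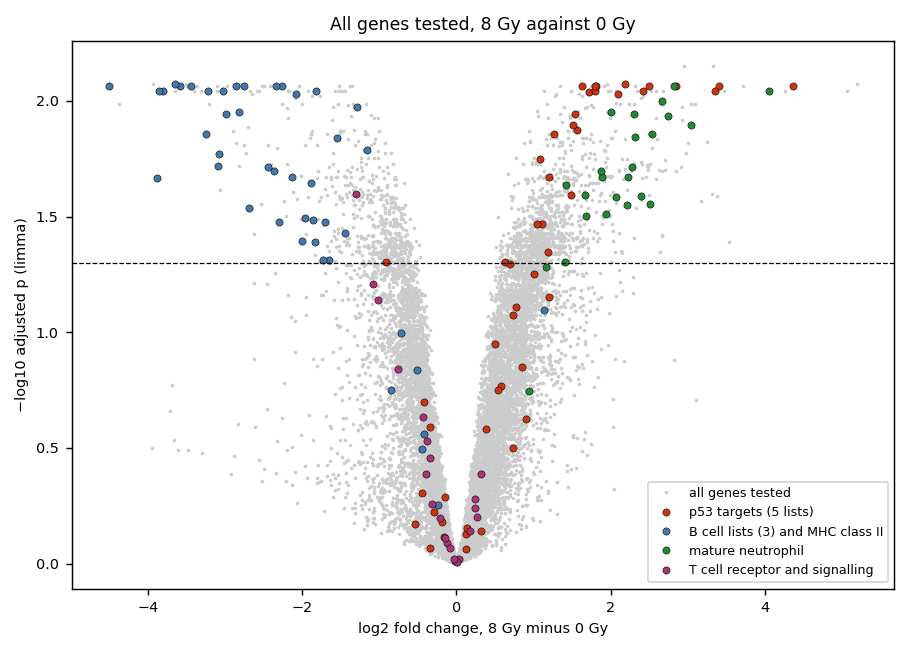
Log2 fold change of each of 13540 genes at 8 Gy against 0 Gy (horizontal axis) and the −log10 of its adjusted p in limma (vertical axis), with the dashed line at an adjusted p of 0.05. Mature neutrophil genes (green) lie mostly to the right above the line, and 24 of the 50 p53 targets (red) lie there too. B cell and MHC class II genes (blue) lie mostly to the left above the line and T cell receptor genes (purple) near the centre.

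p53 targets rose as a group. Of 50 targets measured in 5 lists, 24 rose and 1 fell, against 7.63% and 4.40% of all genes, and 25 did not pass. The median log2 fold change was 0.95, against 0.08 over all genes tested, and 0.80 after quantile normalization. Without replicate 5, 28 rose and 1 fell, and in RiboPure arrays 18 rose and 0 fell. Leaving out any 1 array gave 17 to 29 rises, with the fewest without 0 Gy replicate 1. In 22 of the 50 all irradiated arrays lay above the 6 other sham arrays (6.16% of all genes), and in 5 above all 7 (0.827%).

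The largest response was among targets that arrest the cell cycle, of which 6 of 10 measured rose and 0 fell, with a median of 1.91. The same 6 passed in RiboPure arrays. Cdkn1a encodes p21, an inhibitor of cyclin-dependent kinases. Its level was -4.08, -2.44 and -1.46 (lowest, median and highest) in the 6 other sham arrays, 1.28 in replicate 5, and 1.20, 1.96 and 2.67 at 8 Gy. The irradiated mice lay above all sham mice but replicate 5, and the fit gave a rise of 3.41 ± 0.56 (log2, ± SE, 6 against 7 arrays, adjusted p = 0.00862), or 4.01 without replicate 5 (adjusted p = 2.59e-05). In RiboPure arrays the adjusted p was 0.0296.

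Psrc1, which encodes a protein of spindle microtubules, had sham levels of -3.36, -1.32 and -0.78, a level of 2.86 in replicate 5, and 2.97, 3.48 and 3.82 at 8 Gy. Here all 6 irradiated arrays lay above all 7 sham arrays, and the rise was 4.37 ± 0.70 (20.6-fold, adjusted p = 0.00862), or 5.20 without replicate 5. Ccng1, for cyclin G1, had sham levels of 1.15, 1.32 and 1.67, 3.31 in replicate 5, and 3.30, 3.90 and 4.20 at 8 Gy. Its rise was 2.19 ± 0.33 (adjusted p = 0.00848). Gtse1, whose protein holds p53 in the cytoplasm during G2, rose by 3.36 ± 0.60 from sham levels of -4.86, -3.72 and -3.32 to -1.62, 0.58 and 0.95. It was well above background on 2 of 7 sham arrays, so the size of that rise rests on values near the background. The polo-like kinase gene Plk2 rose by 2.49 ± 0.44 and the zinc finger gene Zmat3 by 1.63 ± 0.29. Btg2, an antiproliferative gene often listed as a p53 target, did not pass, at 0.58 ± 0.29 (adjusted p = 0.171).

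**Figure D2:**
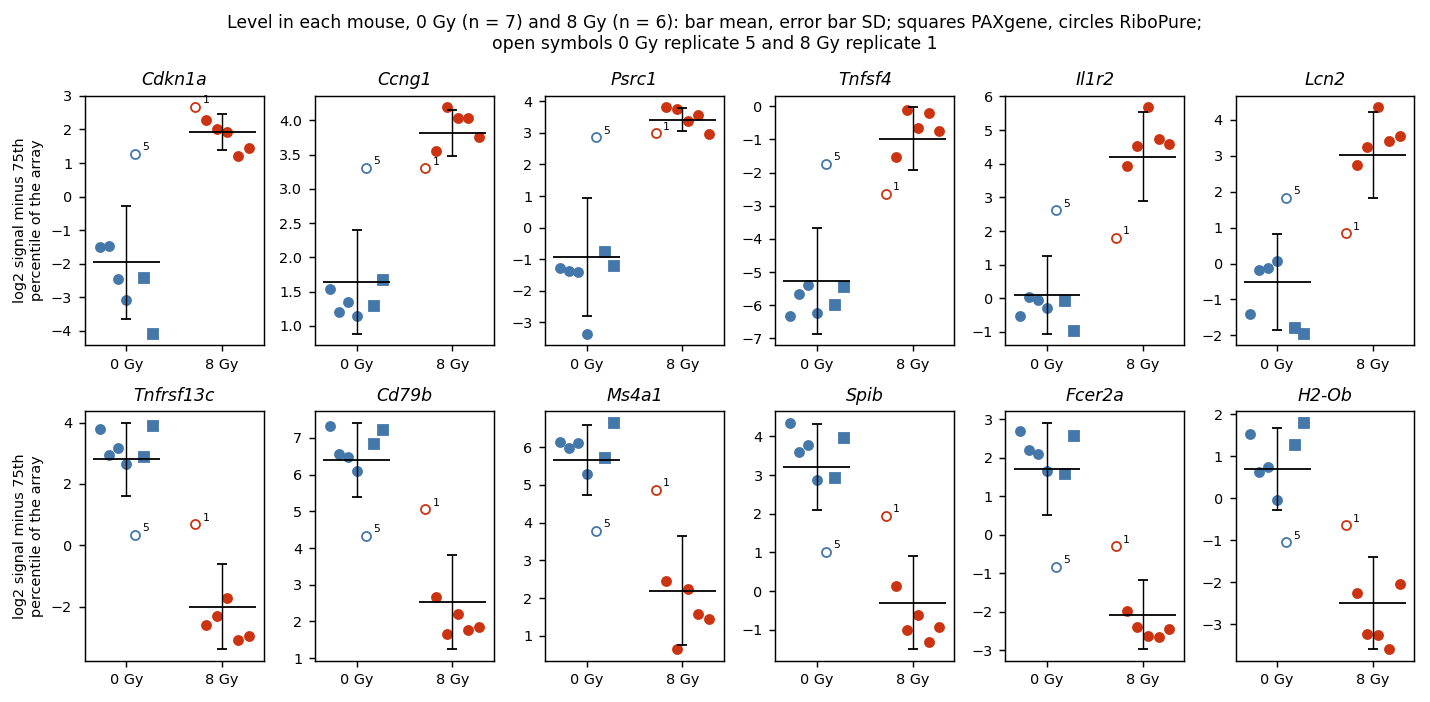
Log2 level minus the array's 75th percentile (vertical axes) of 12 genes in each of 7 mice at 0 Gy and 6 at 8 Gy, with means and SD. The upper genes were higher and the lower genes lower at 8 Gy. In the upper row 0 Gy replicate 5 (open) lies near the irradiated mice. For Tnfrsf13c, Cd79b, Ms4a1, Spib and Fcer2a it lies below the other sham mice and above the median of the irradiated mice. 8 Gy replicate 1 (open) is the irradiated mouse nearest to the sham mice in the lower row.

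Of 9 targets that feed back on p53 or its signalling, 4 rose and 0 fell, with a median of 0.77. Phlda3, for an inhibitor of the kinase Akt, had sham levels of 0.95, 2.54 and 3.12, 5.36 in replicate 5, and 5.01, 5.58 and 6.07 at 8 Gy, a rise of 2.85 ± 0.50 (adjusted p = 0.00862). Trp53inp1, a stress protein that aids p53, rose by 1.54 ± 0.31 (adjusted p = 0.0114). Mdm2 encodes the ubiquitin ligase that degrades p53. It rose from sham levels of 1.30, 1.94 and 2.63, with 3.08 in replicate 5, to 2.90, 3.68 and 4.06, by 1.20 ± 0.29 (adjusted p = 0.0212). In RiboPure arrays its adjusted p was 0.0546. Ccng1 belongs to this list as well. Mdm4, Ppm1d, Rchy1 and Cop1 had log2 fold changes of 0.39 to 0.77 and Pml had -0.42, and none passed, and Trp53 itself had 0.83 ± 0.33 (adjusted p = 0.0963).

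Targets that act in cell death rose in 8 of 13 members measured (median 1.27), 9 without replicate 5 and 6 in RiboPure arrays. Bbc3, the BH3-only protein PUMA, had sham levels of 1.69, 2.80 and 3.23, 4.80 in replicate 5, and 4.41, 5.06 and 5.38 at 8 Gy, a rise of 2.10 ± 0.40 (adjusted p = 0.00929). Bax, which forms pores in the mitochondrial membrane, moved from 0.49, 1.26 and 1.53, with 3.06 in replicate 5, to 2.74, 2.96 and 3.12, by 1.57 ± 0.32 (adjusted p = 0.0133). The irradiated values of Bax spanned a narrow range and replicate 5 fell inside it. The death receptor gene Fas rose by 1.80 ± 0.33, the nuclease gene Aen by 1.81 ± 0.29, the autophagy gene Dram1 by 1.27 ± 0.27 and Ei24 by 1.51 ± 0.31. Pmaip1, the BH3-only protein NOXA, rose by 1.49 ± 0.37 and Apaf1, the scaffold of the apoptosome, by 1.18 ± 0.36, and neither passed in RiboPure arrays (adjusted p = 0.0546 and 0.0947). Tnfrsf10b, Perp, Bid, Pidd1 and Siva1 did not pass.

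Targets in repair and in metabolism differed. Of 8 in DNA repair and nucleotide supply 2 rose, with a median of -0.01, and 1, Polk, also did in RiboPure arrays. They were Polk, a polymerase that copies past DNA lesions (1.79 ± 0.30, adjusted p = 0.00862, with sham levels of -1.75 to -0.89, 0.16 in replicate 5 and 0.43 to 1.23 at 8 Gy), and the excision nuclease gene Ercc5 (0.63 ± 0.20, adjusted p = 0.0496). Ddb2, the damage recognition factor of nucleotide excision repair, had -0.19 ± 0.28 (adjusted p = 0.662), with sham levels of 0.45 to 1.24 and irradiated levels of 0.28 to 0.97 that overlapped. Of 11 in metabolism, 5 rose and 1 fell (median 0.90): Sesn2, a stress-induced inhibitor of growth signalling (2.42 ± 0.44), Dglucy, for a mitochondrial D-glutamate cyclase (1.72 ± 0.32), Gdf15, a stress cytokine (1.11 ± 0.30), the lipid enzyme gene Lpin1 (1.09 ± 0.24) and the peroxidase gene Gpx1 (1.05 ± 0.29) rose. Sesn1, a relative of Sesn2, fell by 0.91 ± 0.29 (adjusted p = 0.0495). In RiboPure arrays 3 rose, Sesn2, Dglucy and Lpin1, and 0 fell. After quantile normalization 4 of the 11 rose and 1 fell, and Gpx1 had 0.13.

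Because p53 binds next to the starts of many of its targets, the RefSeq promoter windows (250 bases before to 50 after a start, build GRCm38.p6) were searched for the p53 consensus, which is 2 copies of the p53 half-site. The copies had to be adjacent or 1 base apart, to keep the fixed C and G of each half-site and to differ from the consensus at no more than 2 of 20 positions. The consensus reads the same on both strands. Such a stretch was present in 218 of 27025 genes with a window (0.807%) and in 92 of 10428 tested genes (0.882%). It was present in 13 of 797 genes that rose (1.63%) and 2 of 442 that fell (0.452%). Among the 125 rises that also passed without replicate 5 and in RiboPure arrays it was present in 8 (6.4%), and among the 83 falls that did so in 2 (2.41%). Of the 42 listed p53 targets with a window, 4 held it, and all 4 rose: Cdkn1a, Gtse1, Ccng1 and Bax. A match describes the letters of the window and shows neither binding nor control, and many p53 sites lie outside such windows.

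The stretches of the named genes are printed 5′ to 3′ on the strand of the gene, with the match in capitals. They were picked by their match to the consensus, so their likeness to each other follows from the search. Cdkn1a lies at chr17:29090923-29090952 (plus strand), Gtse1 at chr15:85859940-85859969 (plus), 1700007K13Rik at chr2:28466280-28466309 (minus) and Rps27l at chr9:66946291-66946320 (plus). Ccng1 lies at chr11:40755422-40755521 (minus), Bax at chr7:45467039-45467138 (minus) and Cd80 at chr16:38458782-38458881 (plus).
Cdkn1a: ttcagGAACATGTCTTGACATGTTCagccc
Gtse1: accggGAGCAAGTTGGGGCTTGCCTctgac
1700007K13Rik: gcacAGACTTGATCtGGGCTAGTTTcctgc
Rps27l: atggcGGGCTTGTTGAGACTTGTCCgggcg
Ccng1: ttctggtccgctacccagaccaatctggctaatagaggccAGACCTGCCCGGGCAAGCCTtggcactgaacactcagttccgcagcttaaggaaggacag
Bax: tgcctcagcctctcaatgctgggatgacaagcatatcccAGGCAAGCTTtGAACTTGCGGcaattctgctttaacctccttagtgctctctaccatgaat
Cd80: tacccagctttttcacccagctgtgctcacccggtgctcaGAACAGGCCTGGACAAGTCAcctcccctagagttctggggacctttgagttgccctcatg
The matches of Cdkn1a, Gtse1, Rps27l, Ccng1 and 1700007K13Rik differ from the consensus at 1 position and those of Bax and Cd80 at 2. The half-sites are adjacent except in 1700007K13Rik and Bax, where 1 base parts them.

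Several of the largest rises were in genes outside the p53 lists. 1700007K13Rik, a gene named for a RIKEN clone from testis, had sham levels of -5.63, -5.35 and -4.30, -1.35 in replicate 5, and -1.74, 0.90 and 1.19 at 8 Gy. It was well above background on 1 sham array (replicate 5) and on all 6 irradiated arrays. Against the detection limit of the 6 other sham arrays it was at least 19.1-fold higher (fitted 5.19 ± 0.74, adjusted p = 0.00848), and its probe lies at chr2:28469361-28469420 on build mm7. Tnfsf4, which encodes the OX40 ligand that costimulates T cells, went from -6.33, -5.84 and -5.40, with -1.73 in replicate 5, to -2.64, -0.70 and -0.12. It was at least 6.73-fold higher by the same measure (adjusted p = 0.0091). 9230114K14Rik, a transcript with no product named in the files, was at least 7.20-fold higher (adjusted p = 0.00704). These were the only 3 tested genes not well above background on any of the 6 other sham arrays and well above it on all arrays at 8 Gy. For each bound, the mean of the bright arrays is set against the detection limit of the dim ones, the dimmest signal that the scanner software accepts on each of them.

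Crispld2, for a secreted protein that binds lipopolysaccharide, rose from -5.37, -3.42 and -2.00, with 0.13 in replicate 5, to -0.09, 2.61 and 3.77 (5.07 ± 0.91, adjusted p = 0.00902). Its probe was well above background on 5 of 7 sham arrays. Scrg1 (3.47 ± 0.63), the early response gene Ier3 (3.09 ± 0.60), the synaptonemal complex gene Sycp2 (3.04 ± 0.60), the receptor gene Mrgpra2b (3.00 ± 0.65) and the myeloid gene Slfn4 (2.97 ± 0.66) followed, each passing in all 3 fits. Ier3 had sham levels of -2.18 to -1.03, 1.08 in replicate 5 and irradiated levels of 0.96 to 2.82. Slfn4 had sham levels of -0.40 to 1.86, 2.93 in replicate 5 and irradiated levels of 2.54 to 5.86, so its groups overlapped only through replicate 5.

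Ligands of T cells moved both ways. Of 9 costimulatory ligands and partners measured, 5 rose and 2 fell (median 0.91), against 7.63% and 4.40% of all genes. Cd80, which binds CD28 and CTLA-4 on T cells, went from sham levels of -4.44, -3.72 and -2.75, with -2.04 in replicate 5, to -1.58, -0.90 and -0.28, above all 7 sham arrays (2.32 ± 0.38, adjusted p = 0.00862). Its probe was well above background on 3 of 7 sham arrays. Besides Tnfsf4, the members Tnfsf8 (CD30 ligand, 1.70 ± 0.44), Tnfsf14 (LIGHT, 1.68 ± 0.43) and Cd274 (PD-L1, 0.91 ± 0.28) rose, while Cd86 had 0.12 ± 0.27 and did not pass. Cd40, carried by B cells, fell by 1.89 ± 0.46 and Icosl by 0.89 ± 0.26. In RiboPure arrays 2 rose, Tnfsf4 and Cd80, and 0 fell.

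Within the Bcl2 family, 4 of 9 pro-apoptotic members rose and 1 fell, against 7.63% and 4.40% of all genes. Beside Bbc3, Bax and Pmaip1, the BH3-only gene Bcl2l11 (BIM) rose by 1.13 ± 0.26, and Bmf, another BH3-only gene, fell by 1.08 ± 0.30 (adjusted p = 0.0345). Without replicate 5, 6 rose and 1 fell, and in RiboPure arrays 2 rose, Bbc3 and Bax, and 0 fell. Of the 5 anti-apoptotic members measured 0 passed in limma (2 at an unadjusted p under 0.05, median 0.30). Bcl2 had 0.02 ± 0.24, Mcl1 0.53 ± 0.22 and Bcl2l1 0.90 ± 0.37, and without replicate 5 also 0 passed. Among 10 caspases and Apaf1, the inflammatory caspase gene Casp4 rose (1.19 ± 0.32) beside Apaf1, and in RiboPure arrays 0 passed in limma (2 at an unadjusted p under 0.05). Of 10 death receptors and their partners 3 rose: Fas, the TNF receptor gene Tnfrsf1a (1.07 ± 0.30) and the caspase-8 inhibitor gene Cflar (0.68 ± 0.20). Without replicate 5, 5 rose, against 15.5% of all genes, and in RiboPure arrays 1, Fas.

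DNA repair genes, listed by pathway, were mostly level or lower. These lists also hold the p53 targets Ercc5, Ddb2, Xpc and Fancc. Of all genes 4.40% fell and 7.63% rose, and without replicate 5, 7.33% fell and 15.5% rose. Among 16 genes of end joining and PARP enzymes, 3 fell and 1 rose (median -0.32). Parp1, whose enzyme marks DNA strand breaks, went from sham levels of 1.98, 2.49 and 2.66, with 1.27 in replicate 5, to 0.18, 0.78 and 1.19, below all 7 sham arrays (-1.48 ± 0.27, adjusted p = 0.0091, also passing in RiboPure arrays). The Ku subunit genes Xrcc6 and Xrcc5 fell by 0.94 ± 0.22 and 0.90 ± 0.22. Of 18 base excision and mismatch repair genes 4 fell and 0 rose (median -0.62), among them the uracil glycosylase gene Ung (-1.40 ± 0.35), Apex1 (-1.09 ± 0.34) and Msh3 (-0.84 ± 0.24). Without replicate 5, 8 of these 18 fell, and in RiboPure arrays 0 (limma, 10 at an unadjusted p under 0.05). Of 20 homologous recombination and Fanconi genes, Fanca (-0.86 ± 0.23), Fancb (-0.85 ± 0.27) and Fancl (-0.70 ± 0.21) fell and 0 rose (median -0.28), and Fancb had the opposite sign under normexp (0.24). The same number fell without replicate 5, and in RiboPure arrays 0 passed in limma (4 at an unadjusted p under 0.05), with adjusted p of 0.06, 0.0855 and 0.0833 for these 3. Nbn, of the complex that detects DNA breaks, was the only 1 of 14 damage sensors and checkpoint kinases that passed (-0.79 ± 0.24), and in RiboPure arrays it did not. Of 14 nucleotide excision genes 1, the p53 target Ercc5, passed, and it rose.

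Cell cycle genes moved in part. Of 33 G1/S and replication genes 5 fell and 1 rose (median -0.34), against 4.40% of all genes lower and 7.63% higher. Rfc1 (-1.02 ± 0.23), Rfc3 (adjusted p = 0.0474), Mcm3 (-0.80 ± 0.25), the licensing factor gene Cdt1 (-0.79 ± 0.19) and Mcm5 (-0.77 ± 0.23) fell and E2f2 (1.04 ± 0.33) rose. Of 29 G2/M genes, Pttg1, for securin (1.04 ± 0.31), and Cdc25b, for a mitotic phosphatase (1.00 ± 0.25), rose and 0 fell (median 0.24), against 7.63% of all genes higher. Without replicate 5, 4 of the 29 rose, against 15.5%. After quantile normalization 0 genes of either list rose, and E2f2, Pttg1 and Cdc25b had 0.45, 0.38 and 0.44. There 4 G1/S genes fell, and the medians were -0.37 (G1/S) and 0.21 (G2/M). In RiboPure arrays 0 G2/M genes passed in limma (7 at an unadjusted p under 0.05), where 1 G1/S gene, Rfc1, did. Proliferation markers of the list did not pass: Mki67 had 0.68 ± 0.38 and Top2a 0.47 ± 0.34.

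B cell transcripts fell together. Of 35 genes in 3 B cell lists, 27 fell and 0 rose, against 4.40% of all genes lower, with a median of -2.26. The count of falls was also 27 without replicate 5 (median -2.51), where Cr2 alone rose, and was 18 in RiboPure arrays. It lay between 18 and 29 when 1 array was left out, with the fewest without 0 Gy replicate 1 or 2. In 16 of the 35 all irradiated arrays lay below the 6 other sham arrays (3.01% of all genes), and in 3 below all 7 (0.835%). In bulk blood, fewer cells of a type and less RNA per cell cannot be told apart, here and in each cell type list that follows.

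Of 18 genes of the B cell receptor and its coreceptors 14 fell, with a median of -2.87. Cd79b, a signalling chain of the receptor, had sham levels of 6.09, 6.70 and 7.31, 4.33 in replicate 5, and 1.65, 2.03 and 5.06 at 8 Gy. The highest irradiated value was replicate 1, above replicate 5, and the fit gave -3.58 ± 0.61 (12.0-fold lower, adjusted p = 0.00862). Ms4a1 (CD20) fell by 3.23 ± 0.60, from sham levels of 5.28, 6.04 and 6.65, with 3.78 in replicate 5, to 0.64, 1.90 and 4.87. Cd22, an inhibitory coreceptor, fell by 3.80 ± 0.69, Fcmr, the receptor for IgM, by 3.86 ± 0.69, and Fcrla by 3.24 ± 0.68. Fcer2a (CD23) went from 1.59, 2.15 and 2.70, with -0.84 in replicate 5, to -2.67, -2.43 and -0.30, by -3.65 ± 0.55 (adjusted p = 0.00848). Cd79a, the partner chain of Cd79b, fell by 2.75 ± 0.49. The members that did not pass were Btk (-0.24 ± 0.27) and Fcgr2b (-0.02 ± 0.31), which myeloid cells also express, with Ralgps2 (-0.42 ± 0.26) and the complement receptor gene Cr2 (1.14 ± 0.43, adjusted p = 0.0804).

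Among the survival receptors was Tnfrsf13c, the receptor of the B cell survival factor BAFF. Its sham levels were 2.63, 3.05 and 3.90, replicate 5 had 0.34, and the irradiated levels were -3.07, -2.44 and 0.68, with the highest in replicate 1. The fitted fall was 4.50 ± 0.72 (adjusted p = 0.00862), but the probe was well above background on 3 of 6 irradiated arrays, so the size rests on values near the background. The probes of Fcer2a, Cd79a, Pax5, Cd40 and H2-Ob were also well above background on 3 of 6 irradiated arrays. Of 8 survival and homing receptors 5 fell (median -1.86): Tnfrsf13c, Ccr6 (-2.08 ± 0.39), Tnfrsf13b (TACI, -1.82 ± 0.34), Cxcr5 (-2.69 ± 0.70) and Cd40. Of 9 B cell transcription factors 8 fell (median -1.65), and 4 did in RiboPure arrays. Spib went from 2.87, 3.68 and 4.35, with 1.02 in replicate 5, to -1.32, -0.77 and 1.94 (-3.44 ± 0.59). Pax5, which holds B cell identity, fell by 3.88 ± 0.92, Bach2 by 1.55 ± 0.33 and Foxo1 by 1.28 ± 0.25, and Pou2f2 (OCT2) did not pass (-0.71 ± 0.29).

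Of 9 immunoglobulin and plasma cell genes measured 1 fell, Ighm, the constant region of IgM (-2.11 ± 0.52, adjusted p = 0.0247), and the median was -1.21. Of all genes 4.40% fell, and 7.33% did without replicate 5. Without replicate 5, 2 fell, Ighm and Mzb1, and 1 rose, Xbp1, and in RiboPure arrays 0 passed in limma (3 at an unadjusted p under 0.05). Sdc1 (-1.47 ± 0.85), Mzb1 (-1.37 ± 0.46), Irf4 (-1.21 ± 0.55), Fkbp11 (-1.21 ± 0.68) and Derl3 (-0.83 ± 0.45) did not pass with all arrays. Jchain, which links antibodies of plasma cells, had -0.04 ± 0.54, Prdm1 0.57 ± 0.30 and Xbp1 0.69 ± 0.23, and these did not pass either. Igk-V1, a kappa variable segment, fell (-3.40 ± 0.62), and such segments are near copies of each other, so its probe may bind several. Among the other large falls were Srpk3, for a protein kinase (-4.37 ± 0.85, well above background on 2 of 6 irradiated arrays), Pla2g2d, for a secreted phospholipase (-3.93 ± 0.60, 3 of 6), Bend5 (-3.51 ± 0.52, 3 of 6), B3gnt5, for a glycolipid enzyme (-3.49 ± 0.61, 2 of 6), and 2010309G21Rik (-3.31 ± 0.61).

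Genes of MHC class II, with which B cells, dendritic cells and some monocytes present antigen, fell in 10 of 10 measured (median -2.06), in 10 without replicate 5 and in 3 in RiboPure arrays. H2-Oa and H2-Ob, chains of the peptide-loading regulator DO found mainly in B cells, fell by 3.03 ± 0.54 and 2.86 ± 0.47, and the transactivator gene Ciita fell by 2.82 ± 0.56. These 3 were the ones that passed in RiboPure arrays. H2-Aa fell by 2.37 ± 0.55, from sham levels of 3.96, 5.20 and 5.66, with 3.67 in replicate 5, to 1.08, 1.99 and 4.90, where the highest was replicate 1. Cd74, the invariant chain, fell by 1.86 ± 0.50. The fewest falls with 1 array left out were 3, without 0 Gy replicate 1 or 2. Of 13 genes of MHC class I and the immunoproteasome, carried by nearly all cells, 0 passed in limma (2 at an unadjusted p under 0.05, median 0.18), among them B2m at 0.67 ± 0.25.

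T cell genes stayed closer to the sham level. Of all genes 4.40% fell and 7.63% rose. Of 21 genes of the T cell receptor and its signalling, 1 fell and 0 rose (median -0.14). That was Cd8b1, a chain of CD8 (-1.31 ± 0.33, adjusted p = 0.0253), of which another probe had the opposite sign. Cd8a had -1.08 ± 0.37 (adjusted p = 0.0617), Cd4 0.03 ± 0.30 and Cd3e 0.24 ± 0.25. Of 12 genes of naive T cell identity and homing, 3 fell: Ccr7, the receptor that guides naive T cells to lymph nodes (-1.51 ± 0.31, also passing in RiboPure arrays), S1pr1, by which they leave them (-1.22 ± 0.31), and Foxp1 (-1.08 ± 0.26). B cells carry these 3 as well. Of 7 Gimap GTPase genes of lymphocytes, 0 passed in limma (2 at an unadjusted p under 0.05, median -0.22), and of 20 NK and cytotoxic genes also 0 (4 unadjusted, median 0.26). Without replicate 5, where 15.5% of all genes rose, 5 of the latter passed, all higher: Klrb1c, Klrc1, Nkg7, Ccl5 and Fasl. Replicate 5 had the highest NK score of all sham arrays, 1.11, against -0.67 to 0.59 in the other 6 and -0.18 to 0.91 at 8 Gy. A difference between the B cell and T cell falls was not tested as such, and the plot of scores by mouse shows both.

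**Figure D3:**
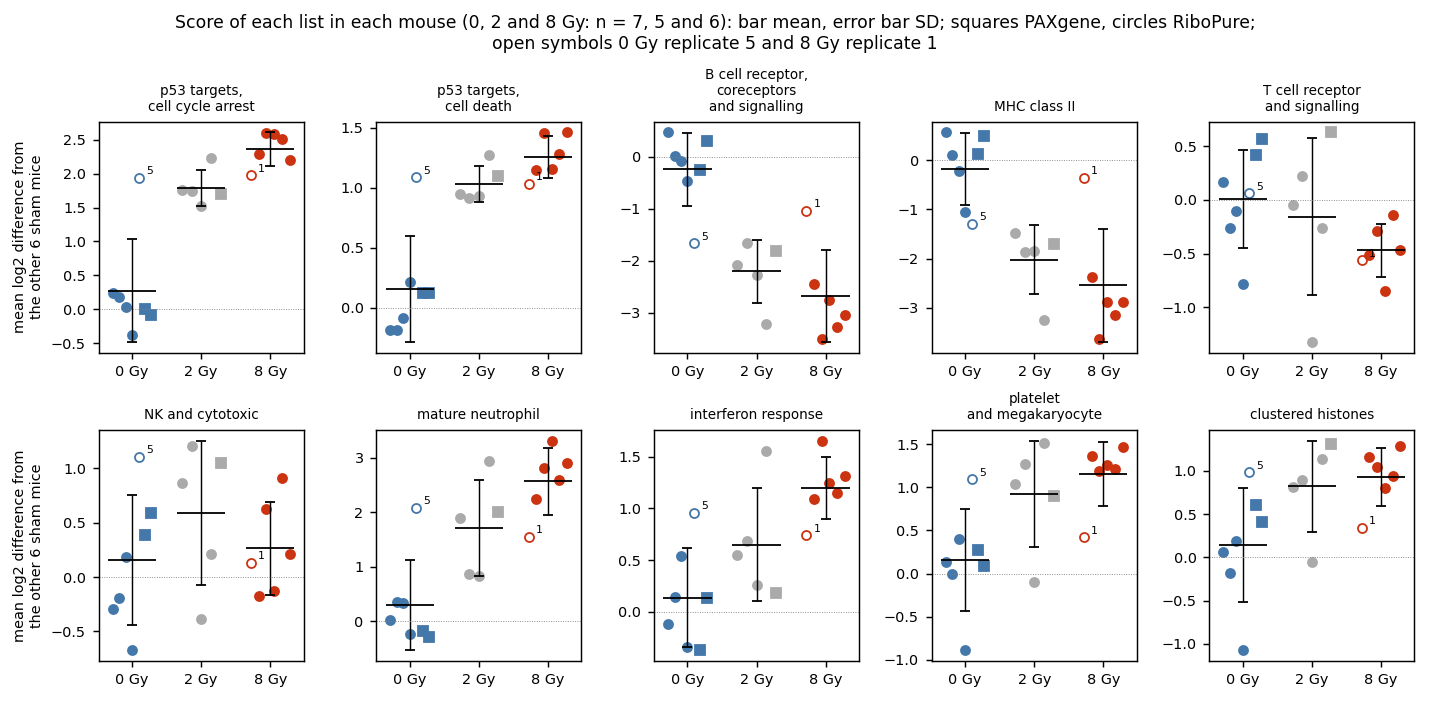
Score of 10 gene lists (vertical axes, mean log2 difference from the 6 other sham mice) in each mouse at 0, 2 and 8 Gy, with means and SD. At 8 Gy the p53 arrest scores lie at 1.97 to 2.60 and B cell receptor scores at -3.52 to -1.04, T cell scores overlap those of the sham mice, and 0 Gy replicate 5 and 8 Gy replicate 1 are drawn open.

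Genes of mature neutrophils rose. Of 24 measured, 22 rose and 0 fell, against 7.63% of all genes higher, with a median of 2.22 (1.89 after quantile normalization). Without replicate 5, 23 rose, and in RiboPure arrays 9. The fewest with 1 array left out were 11, without 0 Gy replicate 1 or 8 Gy replicate 4. In 21 of the 24 all irradiated arrays lay above the 6 other sham arrays (6.16% of all genes), and in 2 above all 7 (0.827%). Il1r2, a decoy receptor for interleukin 1, had sham levels of -0.97, -0.18 and 0.04, 2.61 in replicate 5, and 1.81, 4.56 and 5.69 at 8 Gy, a rise of 4.05 ± 0.76 (16.6-fold, adjusted p = 0.0091). Its lowest irradiated value was replicate 1. Trem1, an amplifier of inflammatory signals, went from -1.76, -1.05 and -0.83, with 0.86 in replicate 5, to 1.00, 1.94 and 2.67, above all 7 sham arrays (2.82 ± 0.49). Asprv1 rose by 3.05 ± 0.63, the gelatinase gene Mmp9 by 2.31 ± 0.46, the receptors Csf3r, for G-CSF, by 2.31 ± 0.49 and Cxcr2, for chemokines, by 2.52 ± 0.65, and the calprotectin genes S100a8 and S100a9 by 2.40 ± 0.60 and 1.68 ± 0.45. G0s2 (0.94 ± 0.48) and Alox5ap (1.16 ± 0.37) did not pass.

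Granule protein genes moved in part. Of 18 measured, 6 rose and 0 fell (median 0.88), 9 without replicate 5 and 2 in RiboPure arrays. Of all genes 7.63% rose, and 15.5% did without replicate 5. Lcn2, for the iron-scavenging protein lipocalin 2 of secondary granules, rose from -1.95, -0.79 and 0.07, with 1.84 in replicate 5, to 0.84, 3.33 and 4.36 (3.25 ± 0.70, adjusted p = 0.015). Mmp8, a collagenase of late granules, rose by 3.38 ± 0.85, Pglyrp1 by 1.88 ± 0.47 and Cd177 by 1.57 ± 0.37. The genes of primary granules, made at the promyelocyte stage, did not pass: Mpo had 0.08 ± 0.38, Ctsg 0.09 ± 0.37 and Prtn3 0.44 ± 0.36. Other genes of secondary granules did not pass either: Ngp had 2.30 ± 0.81 (adjusted p = 0.0676, or 0.0354 without replicate 5), Camp 0.19 ± 0.71 and Ltf -0.11 ± 0.64.

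Other myeloid genes moved in part. Of all genes 7.63% rose and 4.40% fell, and without replicate 5, 15.5% and 7.33%. Of 11 myeloid lectins and Trem receptors 8 rose (median 1.88), and 1 did in RiboPure arrays. Clec5a rose by 2.26 ± 0.53, Clec4n (Dectin-2) by 1.94 ± 0.44 and Clec4e (Mincle), a sensor of dead cells and mycobacteria, by 1.88 ± 0.44. Of 7 Toll-like receptors, Tlr2 (1.72 ± 0.40), Tlr6 (1.72 ± 0.48) and Tlr4 (1.28 ± 0.35) rose and Tlr1 (-1.22 ± 0.31) fell, with 0 calls in RiboPure arrays (limma, 5 at an unadjusted p under 0.05). Of 9 Fc receptors 3 rose, those of IgG on myeloid cells Fcgr4 (1.62 ± 0.36) and Fcgr3 (1.40 ± 0.34) and their signalling chain Fcer1g (1.21 ± 0.34), and the 2 B cell receptors Fcer2a and Fcmr fell. In RiboPure arrays Fcgr4, Fcer2a and Fcmr passed. Markers of classical monocytes did not rise: of 12, 0 rose and Irf8, which B cells also carry, fell (-1.16 ± 0.26), with Csf1r at 0.38 ± 0.34 and Ccr2 at -0.28 ± 0.32. Of 11 markers of patrolling monocytes 0 passed in limma (4 at an unadjusted p under 0.05, median -0.43), Cx3cr1 having -0.79 ± 0.37. Of 10 dendritic cell markers, Ly6d (-2.89 ± 0.60) and Tcf4 (-1.40 ± 0.30) fell, both also found in B cells. Of 10 eosinophil, basophil and mast cell markers 2 fell and 0 rose (median -0.06). Without replicate 5, 2 fell and 2 rose, Siglecf (1.05) and Il4 (1.20). Il5ra fell (fitted -2.54 ± 0.65), with 2 of 6 irradiated arrays well above background, so the size rests on values near the background. Cd200r3 passed as lower (adjusted p = 0.0212) but was well above background on 0 of 6 irradiated arrays and had the opposite sign under normexp (0.33), so no size is given.

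The interleukin 1 system rose in 7 of 15 members (median 0.56), against 7.63% of all genes, and in 3 in RiboPure arrays. Beside Il1r2, the receptor antagonist gene Il1rn went from -1.63, -0.97 and -0.56, with 1.47 in replicate 5, to 0.80, 2.29 and 3.04 (2.67 ± 0.51, adjusted p = 0.01). The cytokine gene Il1b rose by 2.21 ± 0.52 (adjusted p = 0.021), from sham levels of 2.82 to 4.47, with 6.74 in replicate 5, to 5.68 to 7.79. Il18bp, which blocks interleukin 18, rose by 1.62 ± 0.27, from -1.88 to -1.27, with -0.57 in replicate 5, to -0.27 to 0.67. Il1rap, Myd88 and Il18rap rose by 2.10 ± 0.59, 1.53 ± 0.36 and 1.42 ± 0.44. The inflammasome genes Nlrp3, Casp1 and Pycard had 0.20 to 0.31 and did not pass.

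Feedback genes of cytokine signalling rose in 5 of 11 (median 0.76), against 7.63% of all genes. Socs3, which curbs JAK kinases after interleukin 6 or G-CSF, went from 3.51, 4.25 and 5.42, with 6.57 in replicate 5, to 6.90, 7.27 and 7.91, above all 7 sham arrays (2.30 ± 0.45, adjusted p = 0.0104). Pim1 (1.28 ± 0.24), Socs2 (1.42 ± 0.37), Cish (1.28 ± 0.38) and Stat3 (0.76 ± 0.24) rose too, and Socs3 and Pim1 passed in RiboPure arrays. Of 20 immediate early genes 8 rose (median 0.76), and 1 did in RiboPure arrays, Junb. Junb rose by 1.69 ± 0.33, Fosl2 by 1.95 ± 0.44, Jun by 1.61 ± 0.39 and Zfp36, which destabilises cytokine messages, by 1.18 ± 0.29. Egr1 had 0.41 ± 0.34 and Atf3 0.10 ± 0.40 and did not pass. Of 21 genes of NF-kB and its feedback, Ier3, Bcl3 (1.52 ± 0.37), Icam1 (1.04 ± 0.24) and Nfkbiz (0.97 ± 0.31) rose, and Tnfaip3, a standard target, had 0.18 ± 0.26. Without replicate 5, 8 of the 21 rose, against 15.5% of all genes, and in RiboPure arrays 1, Ier3.

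Of all genes 7.63% rose, and 15.5% did without replicate 5. The interferon response rose in 10 of 30 genes and fell in 0 (median 0.86, or 0.63 after quantile normalization). The count was 19 without replicate 5, 3 in RiboPure arrays, 7 after quantile normalization and 1 without 0 Gy replicate 1. In 13 of the 30 all irradiated arrays lay above the 6 other sham arrays (6.16% of all genes), and in 3 above all 7 (0.827%). Rtp4 went from 3.43, 4.21 and 4.45, with 5.72 in replicate 5, to 5.47, 6.25 and 6.86 (1.68 ± 0.36, adjusted p = 0.0144). Oas2, which senses RNA, went from 0.17, 0.94 and 1.67, with 2.70 in replicate 5, to 2.73, 3.23 and 3.99 (1.79 ± 0.40, adjusted p = 0.017). Ifit3 rose by 2.10 ± 0.49 and the antiviral GTPase gene Mx1 by 1.44 ± 0.33, and Rtp4, Oas2 and Mx1 passed in RiboPure arrays. Isg15 (0.84 ± 0.47) and Irf7 (0.86 ± 0.33) did not pass.

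Stress pathways moved unevenly. Of all genes 7.63% rose, and 15.5% did without replicate 5. Of 23 NRF2, heme and ferritin genes 7 rose (median 0.83), 1 of them in RiboPure arrays, Hmox1, for heme oxygenase (1.47 ± 0.30, adjusted p = 0.0118). After quantile normalization 2 rose and the median was 0.28. Of 16 glucocorticoid responsive genes, Cebpd (2.00 ± 0.47) and Ddit4 (1.04 ± 0.30) rose and 0 fell (median 0.28), 4 rose without replicate 5, and in RiboPure arrays 0 passed in limma (5 at an unadjusted p under 0.05). Fkbp5 had 1.70 ± 0.59 (adjusted p = 0.0645, or 0.0122 without replicate 5), Mt2 1.65 ± 1.07 and Anxa1 1.11 ± 0.44, while Tsc22d3, Per1 and Sgk1 had 0.03 to 0.23, and these 6 did not pass. Of 14 genes of the unfolded protein and integrated stress responses, Chac1, a glutathione-degrading enzyme (1.99 ± 0.40), and Ddit3 (1.01 ± 0.29) rose, and the chaperone gene Hspa5 had -0.09 ± 0.24. In RiboPure arrays Chac1 alone of these 14 passed. Of 12 heat shock genes 0 passed in limma (2 at an unadjusted p under 0.05, median -0.07).

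The calls of some groups depended on the scaling and on the arrays that entered. Of 27 platelet and megakaryocyte genes 10 rose and 0 fell (median 1.04), against 7.63% and 4.40% of all genes. Without replicate 5, 22 rose, against 15.5% of all genes. In RiboPure arrays 0 passed in limma (22 at an unadjusted p under 0.05), and the median there was 1.05. After quantile normalization 0 passed (9 unadjusted), where the median was 0.57 and that of all genes -0.02. Rgs18, a platelet regulator of G protein signalling, went from 4.56, 5.70 and 6.05, with 6.62 in replicate 5, to 6.01, 6.93 and 7.36 (1.28 ± 0.34). Of 36 erythroid genes 5 rose (median 0.84), again 0 in RiboPure arrays (16 unadjusted, median 0.81) and 0 after quantile normalization (6 unadjusted, median 0.29). Prdx2, an abundant red cell peroxidase, rose by 1.21 ± 0.29. Of 28 clustered histone genes, whose messages mostly lack poly(A) tails and are near copies of each other, 12 rose (median 1.02). The count was 24 without replicate 5, 0 in RiboPure arrays (21 unadjusted, median 1.00) and 3 after quantile normalization (median 0.63). Of 4 globin genes measured 0 passed in limma (1 at an unadjusted p under 0.05, median 0.53). The platelet, erythroid and histone counts each came to 0 on leaving out any of 0 Gy replicates 1 and 2 and 8 Gy replicate 5. The platelet and histone counts did so for 0 Gy replicate 4 and 8 Gy replicates 2, 3, 4 and 6 too, and the platelet count for 2 Gy replicate 5.

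Housekeeping groups changed sign with the scaling or lost their calls. Of 82 cytosolic ribosomal protein genes 6 rose and 1 fell (median 0.07), where 7.63% and 4.40% of all genes did, so the share is near that of all genes. After quantile normalization 0 rose and 26 fell (median -0.50), against 3.85% and 4.61% of all genes. Rps27l, a ribosomal protein relative that p53 is known to induce, was the largest of the 6 rises, at 1.12 ± 0.28 (adjusted p = 0.0257). Of 77 respiratory chain subunits 8 rose (median -0.05), where 7.63% of all genes did, against 0 after quantile normalization (22 unadjusted, median -0.29).

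**Figure D4:**
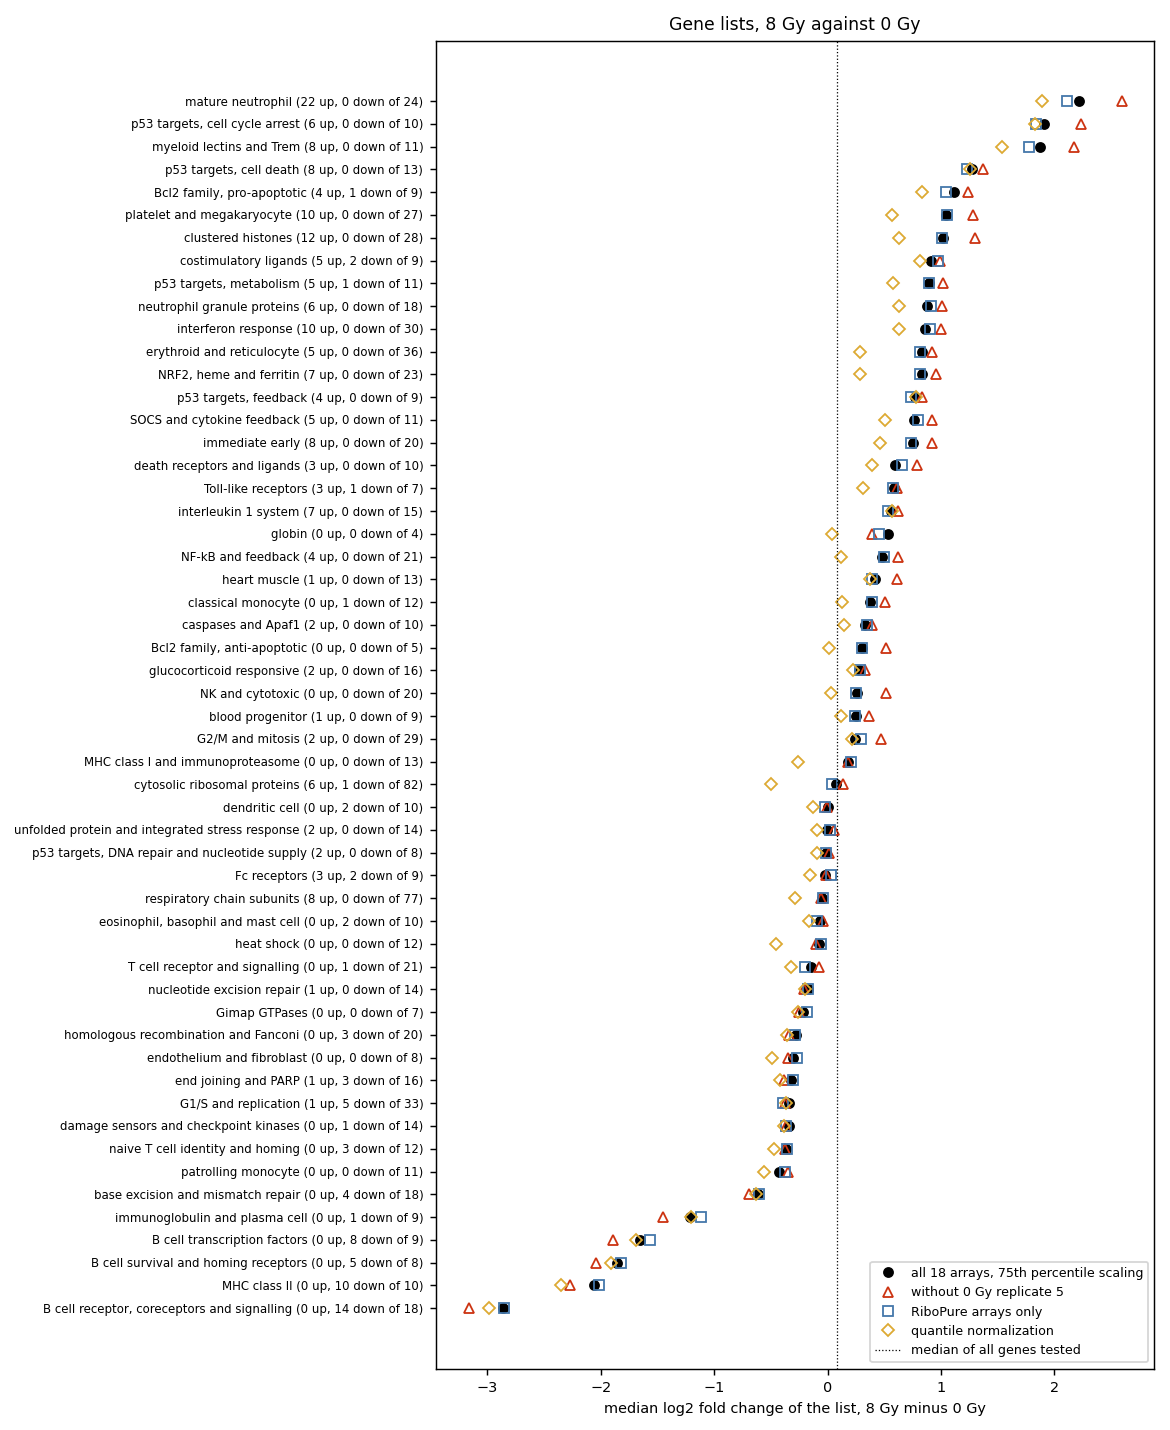
Median log2 fold change at 8 Gy against 0 Gy (horizontal axis) of 54 gene lists, in the fit to all arrays (black), without 0 Gy replicate 5 (red), in RiboPure arrays (blue) and after quantile normalization (yellow), with the counts that rose and fell in the fit to all arrays. The mature neutrophil list lies highest at 2.22 and the B cell receptor list lowest at -2.87, and erythroid, platelet, ribosomal protein and NRF2 lists shift left under quantile normalization.

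Markers of other tissues were checked, since blood was drawn through the heart wall. Of 18 heart muscle markers 13 were measured and 1 rose, where 7.63% of all genes did, so the share is near that of all genes. It was Myl3 (1.27 ± 0.38, adjusted p = 0.0426), of which another probe had the opposite sign and which did not pass in RiboPure arrays. Without replicate 5, 3 of the 13 rose, Myl2, Myl3 and Actc1, against 15.5% of all genes. Myh6, Pln, Ryr2, Ckm and Ckmt2, among the defining markers, were well above background on fewer than 5 of 18 arrays. The heart score was -0.53 to 1.14 in the 6 other sham arrays, 1.24 in replicate 5 and -0.25 to 0.89 at 8 Gy, so the groups overlapped. Of 8 endothelial and fibroblast markers measured 0 passed in limma (0 at an unadjusted p under 0.05, median -0.31). Of 9 markers of blood progenitors 1 rose, Slamf1 (1.08 ± 0.31), and Kit had 0.48 ± 0.44 and Cd34 0.36 ± 0.49. The part of other tissues in the results was not tested.

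Genes that were lost below detection at 8 Gy are given as bounds. There were 16 genes well above background on the 6 other sham arrays and on no irradiated array. Klk1b5, of the kallikrein protease family, was well above background on all 7 sham arrays and was at least 3.79-fold lower (adjusted p = 0.00967). Crip3 was at least 2.30-fold lower and Prr5, a partner of the mTOR complex, at least 1.99-fold lower, each well above background on 6 of 7 sham arrays. LOC629826, a predicted immunoglobulin heavy chain variable segment, was at least 1.70-fold lower and Kctd14 at least 1.25-fold lower, but under normexp both had a fold change above 0 (0.044 and 0.34).

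The 5 mice at 2 Gy are compared with the same 7 sham mice, so both comparisons share their controls and only levels are set side by side. Psrc1 had 1.96 to 3.66 at 2 Gy and 2.97 to 3.82 at 8 Gy, Cdkn1a -0.30 to 1.62 and 1.20 to 2.67, Il1r2 0.81 to 4.82 and 1.81 to 5.69, and Cd79b 1.77 to 4.70 and 1.65 to 5.06. The ranges overlapped in each of these 4 genes.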

How the data were processed

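RNA of 18 blood samples was measured on 1-colour Agilent mouse arrays, 1 per mouse. The authors' scanner files hold processed signal intensity per spot, corrected for background by the scanner software, per the file headers; the submitters' processing notes name Agilent Feature Extraction 9.5.3.1 and limma. A table the authors deposited holds intensity values on a linear scale (column medians 20.66 to 20.71), with steps not given in the sources used here; it was taken to log2 as an alternative (r with the processed signal at least 0.98851).

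Here control spots were dropped, the processed signal was taken to log2, averaged per probe, and centred on the 75th percentile of each array. The filter asked that a probe be flagged well above background in 5 or more of the 18 samples, and the probe with the highest mean stood for a gene, which left 13540 of 20830 genes. They were fitted with limma 3.58.1 (R 4.3.3) on dose and kit over all 18 arrays, with Benjamini-Hochberg adjustment over all genes and a threshold of 0.05. The lists and genes were chosen with earlier results of these data known. Names came from RefSeq accessions for 23075 probes, from symbols for 9659, and from the files for 1449; 6991 had none. Named genes are core p53 targets, the 15 largest rises and falls that passed in the fits to all arrays, without 0 Gy replicate 5 and to RiboPure arrays, up to 4 members of each list by p, and bounds for up to 5 genes undetected in a group; other list members and genes were named after their values were seen. A bound rests on arrays whose number limits its precision. In simulated data for this comparison, on 13540 genes, 29% of changes of 1 and 79% of changes of 2 (log2) were recovered, 100 genes of each size, with 9 false calls. The noise was drawn separately for each gene and array, so differences that many genes of an array share were not simulated. Fewer genes were changed there than passed in the data, so these shares need not hold for the data. Some members of the lists are not reported here by name.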

Additional observations from a re-analysis of the deposited data

Results flagged for a closer look

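A far array is one whose gap to its nearest neighbour exceeds the critical share of its group's range in Dixon's test. Of 196 groups of values tested, 50 had such an array, where chance gives about 1 in 20 groups: 31 were 0 Gy replicate 5, 14 were 8 Gy replicate 1, 4 were 0 Gy replicate 4 and 1 was 8 Gy replicate 3. The values of a group are correlated between genes, so these are not separate events, and their cause was not tested.

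The array labelled 0 Gy replicate 5 stood apart from the other sham arrays in the scores of p53 targets of arrest (1.93) and death (1.08), pro-apoptotic Bcl2 genes (0.97), mature neutrophil genes (2.09), granule proteins (1.35), Toll-like receptors (0.69), myeloid lectins (1.60), the interleukin 1 system (0.92), immediate early genes (0.83) and NRF2 genes (0.66). Its level was far above the others for Ccng1 (3.31), Bax (3.06), Aen (3.42), Psrc1 (2.86), Plk2 (0.15), Gtse1 (-0.081), 1700007K13Rik (-1.35), 9230114K14Rik (-2.06) and Tnfsf4 (-1.73). The same held for Il1r2 (2.61), Scrg1 (2.26), Ier3 (1.08) and Asprv1 (3.91). It was far below them for the B cell genes Tnfrsf13c (0.34), Fcmr (3.00), Cd22 (0.38), Fcer2a (-0.84), Cd79b (4.33) and Fcrla (1.54), and for Srpk3 (-1.20) and 2010309G21Rik (3.69).

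8 Gy replicate 1 lay far above the other irradiated arrays for Tnfrsf13c (0.68), Cd22 (1.33), Fcer2a (-0.30), Cd79b (5.06), Igk-V1 (-0.18), another kappa variable segment (-0.48) and the score of B cell survival receptors (-0.51). It lay far below them for Fas (2.70), Trp53inp1 (3.67), Gtse1 (-1.62), 1700007K13Rik (-1.74), 9230114K14Rik (-1.98) and the scores of NRF2 (0.45) and platelet genes (0.42). 0 Gy replicate 4 was far below the other sham arrays for Btg2 (2.48) and the scores of p53 targets in DNA repair (-0.42), anti-apoptotic Bcl2 genes (-0.56) and Fc receptors (-0.51). 8 Gy replicate 3 had a far score for glucocorticoid responsive genes (0.045).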

How the results depend on the processing

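Of the results for named genes under the alternatives, 6829 kept direction and side of the threshold, 1816 kept direction and no longer passed, 156 newly passed and 4 reversed, all with normexp: Fancb (0.24), Cd200r3 (0.33), LOC629826 (0.044) and Kctd14 (0.34), which lie near the background. The count of 1629 genes became 589 with no filter on dim probes, 818 with only the 0 Gy and 8 Gy arrays, 293 in RiboPure arrays, 624 with the slide as a random block and 4754 with array weights. With limma it was 0 with the slide as a fixed block (1167 at an unadjusted p under 0.05), the scan day (2508) or brightness as a covariate (1836). Fits chosen after the data were seen, without 0 Gy replicate 5, gave 9 with the slide and 393 with brightness; leaving out 1 array gave 280 to 3085. The cause was not tested. The brightness difference no longer passed in RiboPure arrays (-1.04; -1.23 also without replicate 5) and ranged from -1.18 to -0.78 with 1 array left out, which did not pass in 8 of 13 cases (p up to 0.0922, exact permutation test). Same-numbered mice share only a number: their deviations correlated at 0.29, 0.21, 0.19, -0.004, 0.02 and 0.48, and the replicate block called 250 genes, 121 higher and 129 lower.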

Other observations

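Genes outside the lists gave further values. Genes named in this paragraph were chosen after their values were seen. Inka2, for an inhibitor of the kinase PAK4, rose by 2.95 ± 0.40 at 8 Gy (adjusted p = 0.00704 in limma), with means of -4.02 ± 0.96 (SD, n = 7) at 0 Gy and -0.91 ± 0.21 (n = 6) at 8 Gy. It was well above background on 2 of 7 sham arrays and 6 of 6 irradiated arrays. With 9230114K14Rik, Ccng1, Dglucy, Psrc1, Tnfsf4 and Zmat3 it passed with the same sign in 35 of 38 alternatives, the most of any gene. The 9 genes that passed with the slide as a fixed block and without 0 Gy replicate 5 were these 7, Bax (1.59 in that fit, adjusted p = 0.0479) and LOC629826 (-3.14, adjusted p = 0.00333), and Inka2 had 3.14 there (adjusted p = 0.00333).

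Further rising genes held the p53 consensus in their promoter window with 2 mismatches. Jaml, an adhesion molecule of neutrophils and monocytes, rose by 2.18 ± 0.47 (adjusted p = 0.0146) and the selenoprotein gene Selenon by 1.60 ± 0.33 (adjusted p = 0.0119), both also in RiboPure arrays. Mcpt4 (1.46 ± 0.35), Mir22hg (1.24 ± 0.30), Ckap2 (1.22 ± 0.35) and Tfdp2 (1.06 ± 0.33) rose without passing in RiboPure arrays. The falling genes with a match were Cd72, a B cell coreceptor (-2.26 ± 0.38, 2 mismatches), and Calhm2 (-1.17 ± 0.23, 1 mismatch).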
